A study of Homo sapiens with 60 samples.

Results

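HCC2935 is a human lung adenocarcinoma cell line that carries an activating mutation of the epidermal growth factor receptor (EGFR), and osimertinib is a covalent inhibitor of the mutant receptor's kinase. The acute group held 3 libraries of HCC2935 cells given 500 nM osimertinib for 24 h, and the DMSO group held 3 libraries of HCC2935 cells given the vehicle for 24 h. Both groups were parental cells that had first been kept without drug for 21 days, and the labels name no other treatment or allele. The 6 libraries were chosen by cell line and treatment out of 60, and all genes were kept, 19712 listed and 14060 tested after a filter on low counts. The study as a whole compared HCC2935 with 3 further EGFR-mutant lines (H1975, PC9 and HCC827) by bulk mRNA sequencing, each in 5 arms of 3 replicates. The other arms were drug-tolerant persisters left after 21 days in 500 nM osimertinib (DTP) and persisters released from the drug for 24 h or, in HCC2935, for 10 days. HCC2935 is a single established line, the labels call the replicates biological triplicates without saying how the cultures were separated, and the growth medium given for these samples is described for NCI-H1975 cells.

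EGFR signals through RAS, RAF, MEK and ERK, which drive growth genes and the genes of their own feedback inhibitors, and through PI3K and AKT, which hold FOXO transcription factors out of the nucleus. ERK target messages are short-lived, so they are a common readout of whether the pathway is on. In cells that leave the cycle, retinoblastoma proteins hold E2F factors at the genes of DNA replication, and the related DREAM complex holds the genes of mitosis.

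All 15 HCC2935 libraries were closest, by correlation over all genes, to another HCC2935 library, and the 6 libraries held 18642630 to 23966956 estimated counts each. Levels below are normalised counts scaled to 1000000 per library (CPM), single libraries are given in the order of replicates 1 to 3, group levels are the mean ± SD of 3 libraries, and log2 fold changes (acute over DMSO) are given ± SE. Epithelial markers were abundant, with E-cadherin CDH1 at 1480.3, 1616 and 1466 CPM under DMSO and 1235, 1438 and 1109 CPM after osimertinib. NKX2-1, the factor that sets lung identity, stood at 154, 143 and 161 CPM under DMSO and 281, 275 and 273 CPM after osimertinib. Of 10 leukocyte markers 6 were under 1 CPM in all 6 libraries, with CD3D and MS4A1 at 0, but CD68, also made by epithelial lysosomes, was not (78.1 ± 14.01 to 33.7 ± 14.1 CPM). Of 10 fibroblast markers 6 were under 1 CPM in all 6 libraries, with THY1 at 0, and COL1A1 was the highest of the other 4 (66.3 ± 8.18 to 92.7 ± 11.7 CPM). All 5 erythroid markers were under 1 CPM. Of 7 endothelial markers CDH5 (29.2 ± 4.65 to 41.7 ± 5.07 CPM) and ESAM (29.3 ± 3.64 to 44.2 ± 3.60 CPM) were above 20 CPM. The share of counts from mitochondrial genes was 5.56 to 6.20% in the DMSO libraries and 7.39 to 9.07% in the acute libraries, without overlap.

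Osimertinib for 24 h changed 6623 of the 14060 genes tested (47.1%) at an adjusted p under 0.05 in edgeR's quasi-likelihood test. Of these, 3097 rose (22.0% of genes tested) and 3526 fell (25.1%), and 2238 genes (15.9%) changed by at least 2-fold, 1151 upwards and 1087 downwards. With scaling by library size only the balance turned, to 3596 higher and 3066 lower, as it did in the fit of all 15 HCC2935 libraries (3720 and 3324). The median log2 fold change over all genes tested was 0.01. The 3 acute and the 3 DMSO libraries did not overlap for 7998 genes (56.9%). Rose and fell are used below only for genes past that threshold. Counts of list members below stand beside the shares of all genes, 22.0% higher, 25.1% lower and 56.9% without overlap. The p-values are two-sided and measure the spread between these 6 libraries, which may be partly technical.

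**Figure D1:**
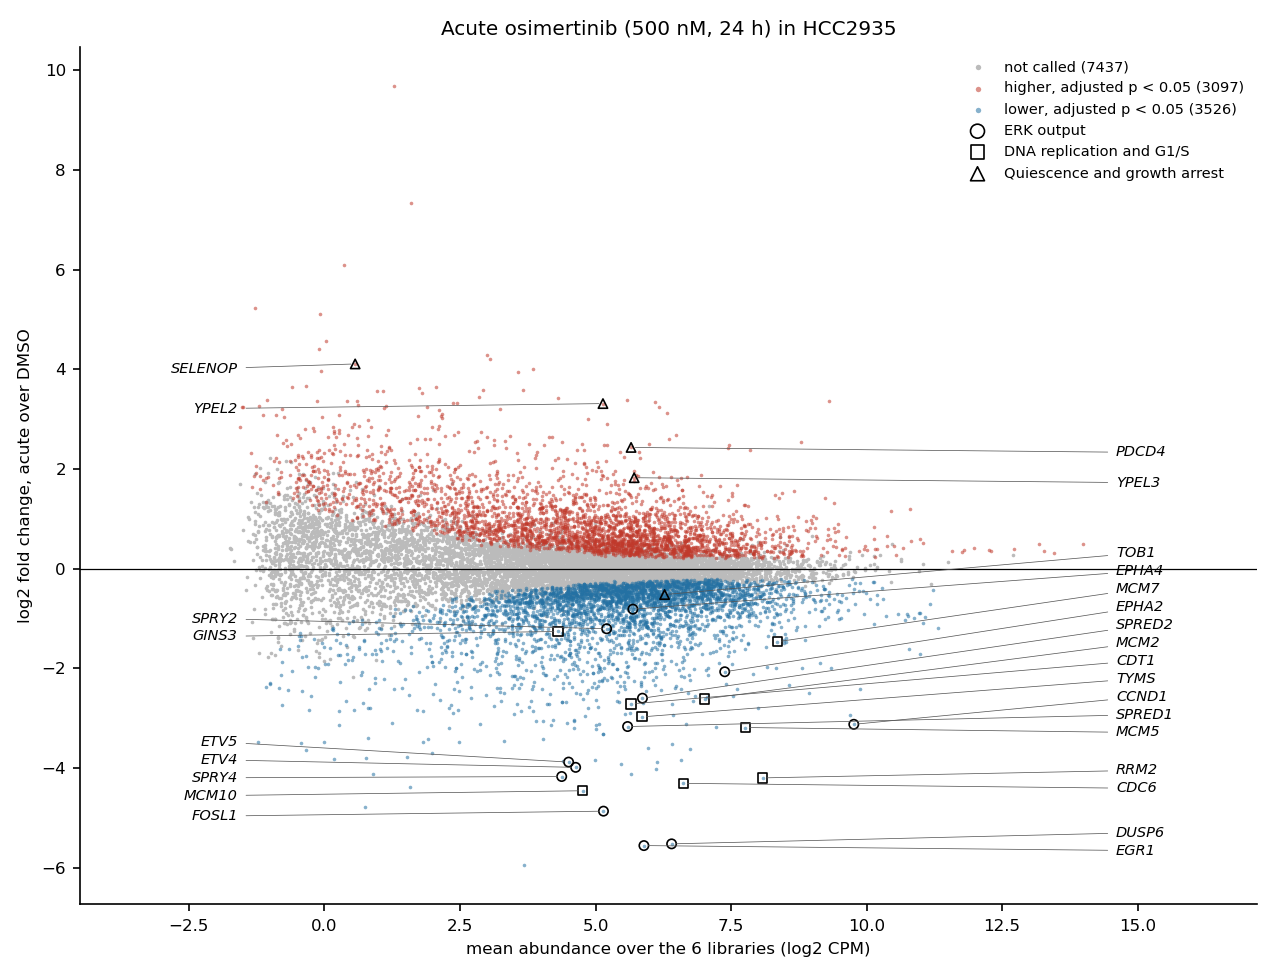
Log2 fold change after 24 h of osimertinib (vertical axis, acute over DMSO) against mean abundance over the 6 HCC2935 libraries (horizontal axis, log2 CPM), 1 point per gene tested. Genes past an adjusted p of 0.05 are coloured, 3097 higher and 3526 lower, and the genes of ERK output, DNA replication and quiescence named in the text are labelled.

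The direct output of ERK fell furthest of all the gene lists examined. All 17 members fell (25.1% of all genes tested did), 16 of them by at least 2-fold, and their median log2 fold change was -3.14. DUSP6, the phosphatase that switches ERK off, stood at 170.3, 165 and 162 CPM in the DMSO libraries and 4.71, 2.39 and 3.58 CPM in the acute libraries. Every acute library was far below every DMSO library (log2 fold change -5.52 ± 0.19, edgeR adjusted p = 2.8e-07). SPRY4, a Sprouty inhibitor of RAS signalling, fell from 39.4 ± 7.30 to 2.15 ± 1.63 CPM (-4.17 ± 0.42, or -4.88 without acute replicate 3). Its relative SPRY2 fell by less (-1.21 ± 0.11). The Spred inhibitors, which bring neurofibromin to RAS, fell as well. SPRED1 went from 86.7 ± 8.70 to 9.65 ± 3.56 CPM (-3.17 ± 0.23) and SPRED2 from 100.1 ± 1.66 to 16.5 ± 3.51 CPM (-2.60 ± 0.14).

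The PEA3 group of ETS factors, which ERK induces in epithelial tumours, fell together. ETV4 went from 46.7 ± 2.31 to 2.94 ± 0.312 CPM (-3.99 ± 0.14) and ETV5 from 42.5 ± 1.20 to 2.86 ± 1.26 CPM (-3.88 ± 0.25). CCND1, the cyclin that links ERK to entry into the cycle, stood at 1549, 1692 and 1437 CPM in the DMSO libraries and 182, 159.8 and 194 CPM in the acute libraries. The groups did not overlap, and the log2 fold change was close to that of the list's median (-3.12 ± 0.11, edgeR adjusted p = 2.8e-07). The member that changed least was the ephrin receptor EPHA4 (-0.81 ± 0.11), while its relative EPHA2 fell by more (-2.07 ± 0.18).

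Immediate early genes also fell, although some were uneven between the DMSO libraries. EGR1, a zinc finger factor induced within minutes by growth factors, stood at 33.1, 122 and 193 CPM in the DMSO libraries and 2.08, 2.34 and 2.96 CPM in the acute libraries. Its DMSO libraries differed several-fold among themselves, yet all lay above the acute libraries (-5.56 ± 0.61, edgeR adjusted p = 7.7e-05). FOSL1, an AP-1 member that needs sustained ERK activity, stood at 60.8, 82.9 and 61.7 CPM in the DMSO libraries and 1.81, 2.71 and 2.53 CPM in the acute libraries, and its groups were far apart (-4.87 ± 0.20). In the list of AP-1 and immediate early genes, of which FOSL1 is no member, 8 of 10 tested fell and none rose (median -1.10). JUN fell from 98.3 ± 9.59 to 43.3 ± 9.09 CPM (-1.19 ± 0.15) and IER2 from 184 ± 16.5 to 82.8 ± 6.58 CPM (-1.16 ± 0.10). FOS fell from a scattered 60.2 ± 44.4 to 6.94 ± 4.31 CPM (-3.13 ± 0.75). FOSB had the lowest value (-3.43 ± 0.997) but stood at 1.501, 22.3 and 65.7 CPM in the DMSO libraries and 1.18, 3.46 and 3.73 CPM in the acute libraries, so that its groups overlapped and its call was lost without DMSO replicate 3, acute replicate 1 or acute replicate 2 (edgeR adjusted p 0.050 to 0.074). SRF, the factor that binds serum response elements, did not pass the test (-0.21 ± 0.09, edgeR adjusted p = 0.082).

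**Figure D2:**
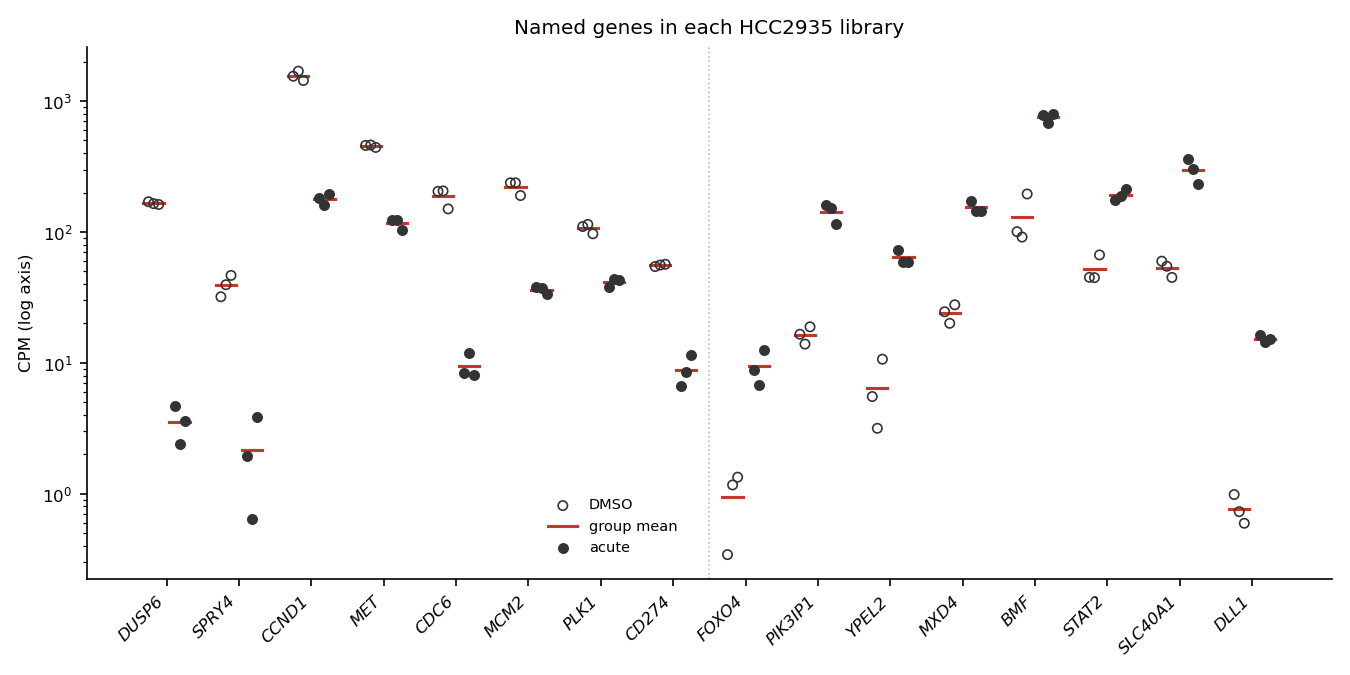
CPM (log axis) of 16 named genes in each of the 6 HCC2935 libraries, with DMSO libraries as open circles, acute libraries as filled circles and group means as short bars. DUSP6, SPRY4, CCND1, MET, CDC6, MCM2, PLK1 and CD274 were lower in every acute library, and FOXO4, PIK3IP1, YPEL2, MXD4, BMF, STAT2, SLC40A1 and DLL1 were higher in every one.

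Ligand genes of the EGFR family were lower or not called. Of 8 tested 4 fell (25.1% of all genes did) and none rose. Amphiregulin AREG fell from 30.8 ± 2.12 to 4.71 ± 0.919 CPM (-2.71 ± 0.17), TGFA from 232 ± 9.55 to 104 ± 6.58 CPM (-1.16 ± 0.08) and HBEGF by a log2 fold change of -1.91 ± 0.31. Epigen EPGN fell furthest, from 2.11 ± 0.370 to 0.140 ± 0.116 CPM (-3.82 ± 0.57, or -4.70 without acute replicate 1), and EGF stayed near 3 CPM (-0.08 ± 0.29). Of 9 genes of the receptors and their inhibitors 3 rose and 2 fell, next to 22.0% and 25.1% of all genes. EGFR itself fell from 634 ± 33.8 to 346 ± 29.4 CPM (-0.87 ± 0.09, edgeR adjusted p = 6.0e-05). ERBB2 rose from 363 ± 19.2 to 609.8 ± 23.3 CPM (0.75 ± 0.08), and ERBB3, the partner that recruits PI3K, rose from 164 ± 1.77 to 267 ± 13.0 CPM (0.70 ± 0.08). Of the genes that restrain these receptors, ERRFI1, itself induced by ERK, fell (-1.23 ± 0.10) and LRIG1 rose from 13.8 ± 1.70 to 30.1 ± 3.55 CPM (1.13 ± 0.15).

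In the list of RAS, RAF, MEK and ERK downstream of these receptors 5 of 17 genes fell, a share near that of all genes (25.1%), and 2 rose. MAP2K1, which encodes MEK1, was lowest (-1.09 ± 0.09) and the exchange factor SOS1 highest (0.84 ± 0.18). Other receptor kinases, some of which can stand in for EGFR in resistant tumours, fell more often than they rose, 8 against 3 of 16 tested. MET, the hepatocyte growth factor receptor, stood at 459, 461 and 442 CPM in the DMSO libraries and 123, 122 and 103 CPM in the acute libraries. The groups did not overlap (-1.97 ± 0.09, edgeR adjusted p = 8.2e-07). TYRO3 (-1.28 ± 0.11) and ROR1 (-1.52 ± 0.16) fell, and FGFR2 (1.28 ± 0.13) and FGFR3 (1.10 ± 0.16) rose. AXL, a receptor of the TAM family, did not pass the test (-0.54 ± 0.24, edgeR adjusted p = 0.092), but did in the fit that blocks on the replicate number (edgeR adjusted p = 0.033 with the replicate block) and without DMSO replicate 3 (edgeR adjusted p = 0.0013).

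Genes that FOXO factors raise were higher on balance. Of 19 FOXO factors and targets 12 rose (22.0% of all genes did) and 3 fell, with a median of 0.54. FOXO4 stood at 0.343, 1.17 and 1.34 CPM in the DMSO libraries and 8.84, 6.81 and 12.6 CPM in the acute libraries, so that the groups were well apart (3.32 ± 0.44, edgeR adjusted p = 2.3e-04). PDK4, a brake on pyruvate oxidation, rose from 0.701 ± 0.236 to 5.87 ± 1.16 CPM (3.05 ± 0.35). CCNG2, a cyclin of arrested cells, rose from 39.5 ± 6.84 to 83.4 ± 2.80 CPM (1.08 ± 0.13). CDKN1B, which encodes the cell cycle inhibitor p27, rose from 44.3 ± 1.23 to 64.4 ± 6.14 CPM (0.54 ± 0.10). GADD45A (-1.07 ± 0.13) and KLF6 (-1.04 ± 0.13) fell. In the PI3K and mTOR list 6 of 19 genes rose, or 4 without DMSO replicate 1 or 2, and 3 fell, next to 22.0% and 25.1% of all genes. PIK3IP1, a membrane inhibitor of PI3K, rose from 16.4 ± 2.47 to 143 ± 23.9 CPM (3.12 ± 0.16) and DEPTOR, an inhibitor bound to mTOR, from 6.90 ± 0.280 to 18.5 ± 1.18 CPM (1.42 ± 0.14). The regulatory subunit PIK3R1 fell from 88.4 ± 1.27 to 35.7 ± 0.751 CPM (-1.31 ± 0.08).

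Most tested genes of growth arrest rose. In the quiescence list 9 of 12 tested genes rose (22.0% of all genes did), with a median of 0.84, and TOB1 alone fell (-0.52 ± 0.11). YPEL2, of the yippee-like family, stood at 5.53, 3.16 and 10.7 CPM in the DMSO libraries and 73.1, 59.2 and 59.4 CPM in the acute libraries, with no overlap (3.31 ± 0.34, edgeR adjusted p = 4.7e-05). YPEL3 rose from 23.1 ± 1.07 to 81.8 ± 3.78 CPM (1.82 ± 0.10). PDCD4, an inhibitor of translation, rose from 15.8 ± 1.39 to 85.0 ± 8.17 CPM (2.43 ± 0.12). SELENOP, the selenium carrier of plasma, was the highest member but stayed low (0.158 ± 0.0795 to 2.80 ± 0.706 CPM, 4.11 ± 0.50). In the MYC network 5 of 12 genes rose and 4 fell, next to 22.0% and 25.1% of all genes. MYC fell from 38.9 ± 6.03 to 12.9 ± 0.558 CPM (-1.59 ± 0.14), and MYCN fell furthest (2.59 ± 0.258 to 0.583 ± 0.134 CPM, -2.14 ± 0.38). MXD4, a MAX partner that opposes MYC, stood at 24.6, 20.1 and 27.8 CPM under DMSO and 172, 145 and 145 CPM after osimertinib (2.67 ± 0.14, edgeR adjusted p = 1.0e-06). MXI1, of the same kind, rose from 7.49 ± 0.295 to 22.0 ± 2.29 CPM (1.56 ± 0.14).

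The machinery of DNA replication fell as a whole. All 30 members of the list fell (25.1% of all genes did), each by at least 2-fold, with a median log2 fold change of -2.49. In none did the groups overlap, and 56.9% of all genes tested were without overlap. CDC6, which loads the replicative helicase onto DNA, stood at 204, 206 and 150.1 CPM in the DMSO libraries and 8.43, 11.9 and 8.08 CPM in the acute libraries (-4.31 ± 0.19, edgeR adjusted p = 5.3e-07). The helicase subunits fell by unequal amounts, from -3.19 ± 0.12 for MCM5 to -1.47 ± 0.11 for MCM7. MCM10, which activates the helicase, fell furthest (-4.46 ± 0.20). RRM2, the S-phase subunit of ribonucleotide reductase, fell from 515 ± 51.0 to 28.0 ± 1.83 CPM (-4.20 ± 0.11), and TYMS, which makes thymidylate, from 103 ± 9.89 to 13.1 ± 0.242 CPM (-2.97 ± 0.11). GINS3 changed least (-1.26 ± 0.22). In bulk RNA, fewer cells in a phase of the cycle and less RNA per cell cannot be told apart.

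Many of these genes share the letters of an E2F site near their start. In windows of 300 bases (250 before to 50 after the first listed start, RefSeq, GRCh38.p14), the letters TTTGGCGC, TTTCGCGC, TTTGCCGC or TTTCCCGC were found on either strand in 17 of the 27 replication genes that have a window (63.0%) and in 582 of all 11112 tested genes with one (5.24%). The windows of CDC6 (chr17:40287629-40287928, plus strand) and MCM2 (chr3:127598161-127598460, plus strand) are shown because all genes of the class fell, with the E2F letters in capitals. MCM2, a helicase subunit, stood at 237, 237 and 189.8 CPM under DMSO and 37.8, 37.1 and 33.6 CPM after osimertinib (-2.61 ± 0.11).
CDC6: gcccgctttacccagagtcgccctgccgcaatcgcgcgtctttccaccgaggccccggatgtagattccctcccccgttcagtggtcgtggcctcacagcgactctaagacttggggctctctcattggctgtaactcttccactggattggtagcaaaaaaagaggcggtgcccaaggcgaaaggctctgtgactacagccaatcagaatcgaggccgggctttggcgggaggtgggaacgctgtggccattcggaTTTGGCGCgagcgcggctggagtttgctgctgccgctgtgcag
MCM2: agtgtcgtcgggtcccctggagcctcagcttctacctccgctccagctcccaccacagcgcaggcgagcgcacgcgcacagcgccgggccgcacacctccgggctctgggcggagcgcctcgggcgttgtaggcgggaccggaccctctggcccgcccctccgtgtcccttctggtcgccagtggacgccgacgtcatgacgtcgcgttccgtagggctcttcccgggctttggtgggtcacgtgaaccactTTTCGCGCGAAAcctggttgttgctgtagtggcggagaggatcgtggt
In CDC6 the letters begin at base 8 counted from the start as base 1, and in MCM2 overlapping matches on opposite strands begin at bases 3 and 7.

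Mitotic genes fell by a smaller median. All 30 members of the mitotic list fell (25.1% of all genes did), 26 of them by at least 2-fold, with a median of -1.48. The groups overlapped in none of them, and were without overlap for 56.9% of all genes tested. MKI67, which encodes the proliferation marker Ki-67, stood at 528, 514 and 494 CPM in the DMSO libraries and 124, 131 and 133 CPM in the acute libraries (-1.98 ± 0.08, edgeR adjusted p = 4.2e-07). AURKB, a kinase of chromosome segregation, fell furthest, from 54.9 ± 4.81 to 10.8 ± 0.382 CPM (-2.35 ± 0.12). CDK1, the kinase of mitotic entry, fell by a log2 fold change of -2.08 ± 0.11. CCNB1, its cyclin partner, fell from 127 ± 8.23 to 52.99 ± 3.52 CPM (-1.26 ± 0.09), and the kinesin KIF20A fell least (-0.81 ± 0.10). All 15 genes of DNA repair in cycling cells fell too, and PALB2, which acts in repair by recombination, fell least (-0.48 ± 0.12).

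The promoters of mitotic genes shared other letters. The cell cycle homology region hexamer (TTTGAA or TTCGAA, either strand), which the DREAM and MMB complexes bind, was found in 17 of 24 mitotic windows (70.8%) and in 1249 of the 11112 windows (11.2%), and in 2 of 27 replication windows (7.41%). The CCAAT box (CCAAT, either strand), bound by NF-Y, was found in 19 of the 24 (79.2%) against 36.2% of all windows. Replication windows held it in 15 of 27 (55.6%), also above the share of all windows. Neither motif contains the other, and a window may hold both. PLK1 (chr16:23678639-23678938, plus strand) and CCNB2 (chr15:59104896-59105195, plus strand) are shown with both motifs in capitals because both hold both motifs just before the start. PLK1, the kinase that drives mitotic entry, stood at 110.1, 114 and 96.8 CPM under DMSO and 38.1, 43.4 and 42.7 CPM after osimertinib (-1.37 ± 0.10).
PLK1: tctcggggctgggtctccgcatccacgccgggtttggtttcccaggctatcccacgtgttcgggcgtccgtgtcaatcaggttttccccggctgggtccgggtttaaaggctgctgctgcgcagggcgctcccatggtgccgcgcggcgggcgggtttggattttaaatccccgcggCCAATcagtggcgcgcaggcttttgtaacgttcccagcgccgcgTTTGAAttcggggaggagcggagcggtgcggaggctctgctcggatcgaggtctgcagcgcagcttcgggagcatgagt
CCNB2: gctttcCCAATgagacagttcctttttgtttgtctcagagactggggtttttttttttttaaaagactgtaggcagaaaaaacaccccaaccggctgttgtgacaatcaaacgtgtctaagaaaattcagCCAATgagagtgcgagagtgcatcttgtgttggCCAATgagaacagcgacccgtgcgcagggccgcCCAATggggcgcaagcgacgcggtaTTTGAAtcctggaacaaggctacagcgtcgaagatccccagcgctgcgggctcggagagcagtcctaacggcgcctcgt
In both genes the hexamer begins 29 bases before the start. The last CCAAT box begins 73 bases before it in PLK1 and 54 bases before it in CCNB2. The AP-1 letters TGANTCA were in 0 of 10 windows of ERK output genes and in 4.81% of all windows. The FOXO letters GTAAACA were in 2 of 15 windows of the FOXO list and in 2.29% of all windows.

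Regulators of G1 fell with them, 12 of 15 tested. E2F2 was lowest (-3.04 ± 0.18), and E2F1, the main activator of S-phase genes, fell from 81.9 ± 12.4 to 10.8 ± 1.48 CPM (-2.93 ± 0.15). Cyclin E, which opens S phase, fell in both its forms, CCNE1 (-2.66 ± 0.17) and CCNE2 (-2.90 ± 0.34). The inhibitor CDKN1C, which encodes p57, was the only member called higher (3.78 ± 0.524 to 11.4 ± 2.21 CPM, 1.59 ± 0.22). CDKN1A, which encodes p21, did not pass the test (-0.25 ± 0.12, edgeR adjusted p = 0.12) but did under 2 settings, with the replicate block (edgeR adjusted p = 0.024 with the replicate block) and without acute replicate 1 (edgeR adjusted p = 0.03). Of 25 chromatin genes 7 rose and 8 fell, shares near those of all genes (22.0% and 25.1%). EZH2, the methyltransferase of Polycomb, fell furthest of these, from 97.5 ± 4.44 to 29.8 ± 5.20 CPM (-1.71 ± 0.13), DNMT1, which copies DNA methylation, fell from 264 ± 19.4 to 101 ± 10.4 CPM (-1.39 ± 0.10), and the deacetylase HDAC5 rose from 14.8 ± 2.74 to 54.6 ± 4.16 CPM (1.89 ± 0.15).

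Histone genes of the replication-dependent clusters went the other way. Of 9 tested 8 rose and none fell, with a median of 1.18. H2AC6 was highest, from 27.4 ± 3.47 to 105 ± 7.84 CPM (1.94 ± 0.12), the linker histone H1-2 rose from 39.4 ± 4.55 to 81.5 ± 8.11 CPM (1.05 ± 0.12), and H3C2 stayed under 1 CPM (0.17 ± 0.68). Messages of these genes mostly lack a poly(A) tail in dividing cells, and the library kit selects messages that carry one, so that these values count the tailed fraction.

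**Figure D3:**
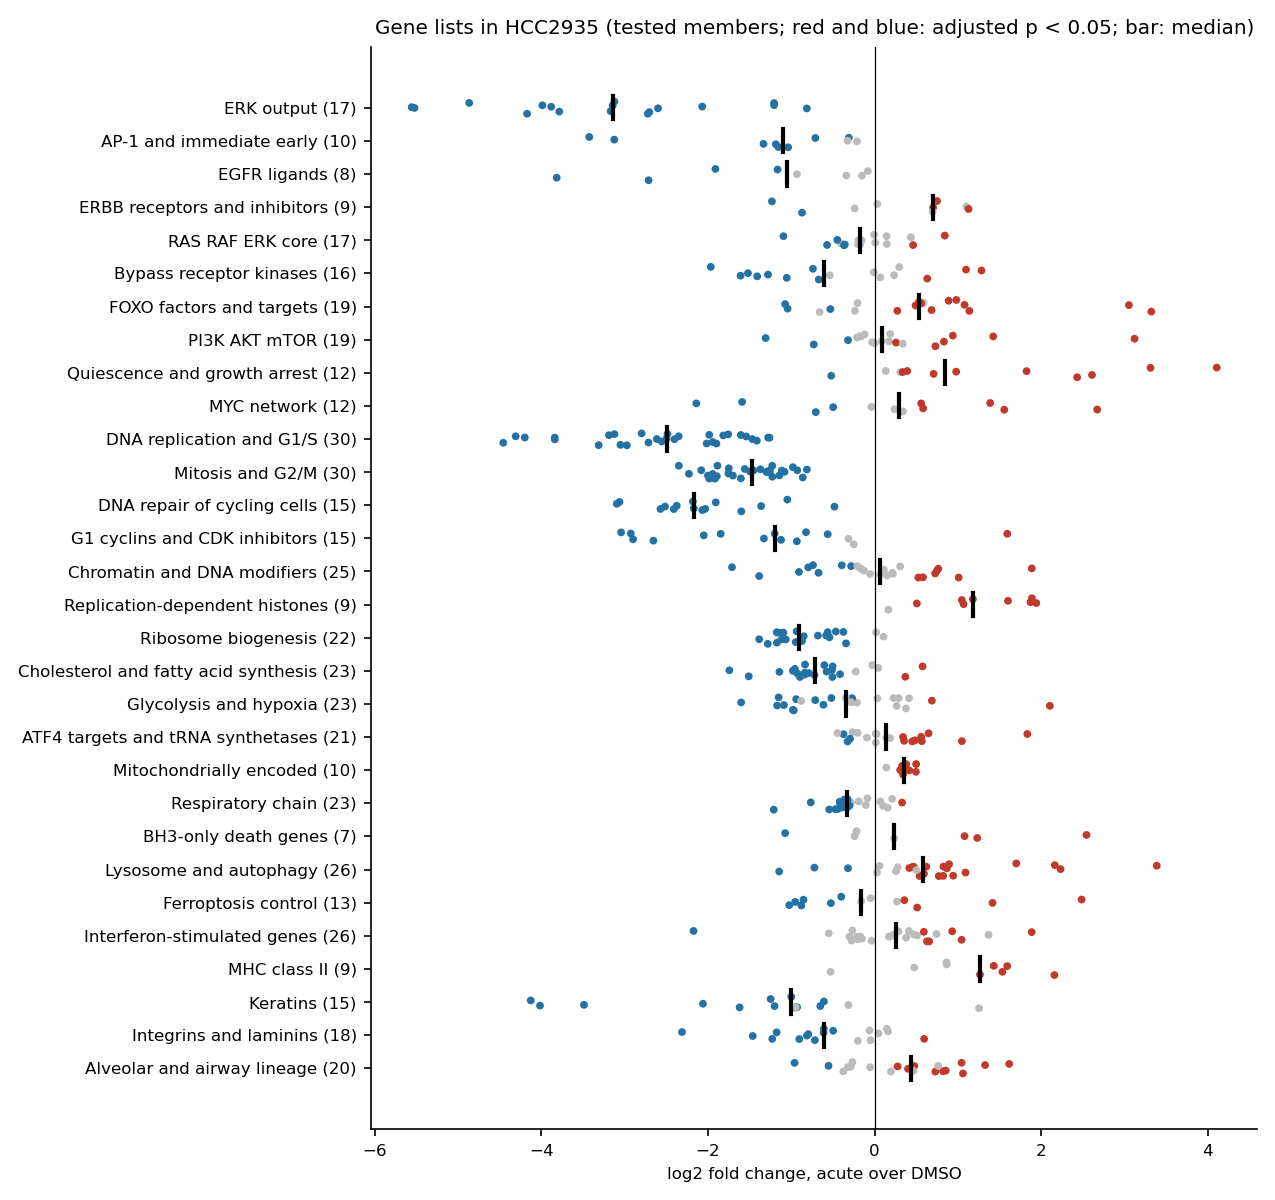
Log2 fold changes (horizontal axis, acute over DMSO) of the tested members of 30 gene lists, 1 point per gene, coloured where the adjusted p is under 0.05 and grey otherwise, with the list median as a black bar. ERK output, replication, repair and mitosis lie wholly below 0, while most members of the quiescence, FOXO, lysosome and histone lists lie above it.

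Ribosome biogenesis fell, 20 of 22 genes, with a median of -0.90. NOP56, of the particle that modifies ribosomal RNA, fell from 94.7 ± 10.1 to 38.9 ± 1.04 CPM (-1.28 ± 0.10), nucleolin NCL fell from 737 ± 30.4 to 409 ± 29.97 CPM (-0.85 ± 0.09), PA2G4 was lowest (-1.39 ± 0.10) and BOP1 highest without passing the test (0.11 ± 0.19). The ribosomal proteins themselves had a median of -0.03 and ran from -0.33 ± 0.09 for RPL4 to 0.39 ± 0.10 for RPL3, whose call was lost without acute replicate 1 (edgeR adjusted p = 0.053). Genes of cholesterol and fatty acid synthesis fell in 18 of 23 and rose in 2. ELOVL6, a fatty acid elongase, was lowest (34.9 ± 9.69 to 10.5 ± 4.06 CPM, -1.74 ± 0.28). SREBF1, a regulator of these genes, rose from 124 ± 15.7 to 185 ± 23.7 CPM (0.58 ± 0.12). Of 23 tested genes of glycolysis and hypoxia 11 fell and 2 rose. HK2, the hexokinase of growing tumours, fell from 73.9 ± 2.39 to 24.4 ± 2.83 CPM (-1.602 ± 0.11), LDHA, which makes lactate, from 766 ± 26.6 to 345 ± 65.2 CPM (-1.15 ± 0.13), and NDRG1, a hypoxia and differentiation gene, rose from 10.5 ± 1.95 to 44.9 ± 9.07 CPM (2.104 ± 0.19).

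Stress genes were mixed. In the list of ATF4 targets and tRNA synthetases 9 of 21 rose and 3 fell, and without DMSO replicate 1 or acute replicate 1 none of the 3 was called. DDIT4, an inhibitor of mTORC1, stood at 53.1, 34.2 and 48.2 CPM in the DMSO libraries and 180.1, 166 and 137 CPM in the acute libraries (1.83 ± 0.17, edgeR adjusted p = 2.3e-05). The alanine and tryptophan synthetases rose, AARS1 by 0.56 ± 0.10 and WARS1 by 0.65 ± 0.11, as did PHGDH, the first enzyme of serine synthesis (0.57 ± 0.09). SLC7A11, the cystine carrier, was lowest (-0.45 ± 0.17, edgeR adjusted p = 0.06) and passed the test with the block (edgeR adjusted p = 0.037 with the replicate block) and without DMSO replicate 2 or acute replicate 3 (edgeR adjusted p = 0.03 and 0.038), and in DESeq2. Chaperone genes fell in 9 of 18, with HSPA8 lowest (-0.91 ± 0.09) and HSP90AA1 falling from 2589.6 ± 144 to 1389 ± 112 CPM (-0.90 ± 0.09), and HERPUD1, of endoplasmic reticulum quality control, was highest (1.23 ± 0.14). Here 3 genes rose, or 5 without DMSO replicate 3.

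Genes of the mitochondrial genome were slightly higher and nuclear genes of the respiratory chain slightly lower. MT-CO3, a subunit of cytochrome oxidase, stood at 7498, 7462 and 7983 CPM in the DMSO libraries and 10142, 12709 and 9567 CPM in the acute libraries (0.50 ± 0.11, edgeR adjusted p = 0.0057). Of 10 mitochondrially encoded genes 9 were called higher, but 2 without DMSO replicate 1 and 3 without DMSO replicate 2 or acute replicate 2, and MT-ND2 was lowest (0.14 ± 0.11, edgeR adjusted p = 0.33, and 0.05 without acute replicate 3). Of 23 nuclear genes 14 were called lower, or 9 without acute replicate 3, with ATP5MC1, a subunit of ATP synthase, lowest (-1.21 ± 0.10) and NDUFV1, of complex I, highest (0.33 ± 0.10). The call of NDUFV1 was lost without DMSO replicate 1, DMSO replicate 2 or acute replicate 3 (edgeR adjusted p 0.052 to 0.079). The mitochondrial share of counts, 5.56 to 6.20% and 7.39 to 9.07% in the same libraries, moved with these genes, and its part in the differences was not tested.

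Death genes shifted in a few members. Of 7 tested BH3-only genes, which trigger mitochondrial apoptosis, 3 rose and 1 fell, or 2 without DMSO replicate 3. Of all genes 22.0% rose and 25.1% fell. BMF, a BH3-only gene linked to loss of attachment, stood at 101, 91.4 and 195 CPM in the DMSO libraries and 785, 679 and 792 CPM in the acute libraries, with no overlap (2.54 ± 0.26, edgeR adjusted p = 4.6e-05). BCL2L11, which encodes BIM, a trigger that ERK marks for destruction, rose from 25.7 ± 2.29 to 54.3 ± 7.22 CPM (1.08 ± 0.13). BBC3, which encodes PUMA, rose from 23.7 ± 2.34 to 55.7 ± 8.22 CPM (1.23 ± 0.13), and PMAIP1, which encodes NOXA, fell from 40.4 ± 8.10 to 19.2 ± 1.57 CPM (-1.07 ± 0.15). Among protective genes and effectors BCL2A1 fell from 7.54 ± 1.83 to 1.21 ± 0.252 CPM (-2.64 ± 0.29), and the others ran up to -0.18 ± 0.09 for BCL2L2. In that list 1 of 8 was called lower, 2 were without DMSO replicate 1, DMSO replicate 3 or acute replicate 3, and 6 were with the replicate block. BCL2L1, which encodes BCL-XL, did not pass the test (-0.35 ± 0.13, edgeR adjusted p = 0.052) but did under 6 of 15 alternatives, with the block (edgeR adjusted p = 0.002 with the replicate block), without DMSO replicate 3 (edgeR adjusted p = 0.011), without the filter on low counts, in the 24 libraries of the 4 lines, in DESeq2 and in limma. Among p53 targets 5 of 15 rose and 4 fell, next to 22.0% and 25.1% of all genes, from TP53INP1, also an autophagy gene (6.48 ± 1.07 to 52.0 ± 8.31 CPM, 3.01 ± 0.17), to the nuclease gene AEN (-2.28 ± 0.19).

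Lysosome and autophagy genes rose, 18 of 26, with a median of 0.58. ATG9B, of the membrane supply of autophagosomes, was highest (8.31 ± 0.877 to 86.8 ± 30.2 CPM, 3.39 ± 0.24), GABARAPL1, of their coat, rose from 13.3 ± 1.40 to 59.7 ± 8.74 CPM (2.16 ± 0.14), and ULK1, the kinase that starts autophagy, rose from 35.1 ± 7.45 to 114 ± 26.7 CPM (1.70 ± 0.19). The protease gene CTSD rose from 1624 ± 158 to 2449 ± 269 CPM (0.59 ± 0.11). GLA, an enzyme of glycolipid breakdown, fell (-1.15 ± 0.15), with 3 falls in all, or 1 without DMSO replicate 1 or DMSO replicate 2. Iron and lipid genes of the ferroptosis list moved both ways, 4 of 13 higher (22.0% of all genes) and 6 lower (25.1%). The iron exporter SLC40A1 stood at 59.8, 54.7 and 44.9 CPM under DMSO and 358, 303 and 232 CPM after osimertinib (2.48 ± 0.17, edgeR adjusted p = 4.1e-06). The ferritin light chain FTL rose from 326 ± 3.95 to 870.1 ± 92.9 CPM (1.42 ± 0.10), and ACSL4, which loads lipids prone to oxidation, fell from 121 ± 6.49 to 59.3 ± 11.2 CPM (-1.02 ± 0.13).

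Interferon and antigen presentation genes rose in part. Of 26 interferon-stimulated genes 6 rose and 1 fell, a share of rises about that of all genes (22.0%), and without DMSO replicate 3 the rises were 14. STAT2, a subunit of the factor that interferon activates, stood at 45.02, 44.8 and 66.8 CPM in the DMSO libraries and 174, 189.8 and 214 CPM in the acute libraries, with no overlap (1.89 ± 0.16, edgeR adjusted p = 1.6e-05). OAS3, a sensor of viral RNA, fell from 162 ± 13.5 to 35.9 ± 4.43 CPM (-2.17 ± 0.11). Of 15 MHC class I genes 8 rose, or 6 without DMSO replicate 1, and TAP2, a peptide transporter, fell (-1.13 ± 0.12). HLA-F was highest (0.94 ± 0.13), and the light chain B2M rose from 1727 ± 196 to 2481 ± 199.7 CPM (0.52 ± 0.11). Of 9 tested MHC class II genes 5 were called higher, or 3 without DMSO replicate 2, with HLA-DMB highest (1.57 ± 0.262 to 7.02 ± 1.11 CPM, 2.16 ± 0.26) and the invariant chain CD74 rising from 13.3 ± 2.72 to 35.7 ± 6.44 CPM (1.43 ± 0.19). CIITA, their activator, was lowest (-0.53 ± 0.32, edgeR adjusted p = 0.20). Reads of HLA genes may be shared between near-identical members.

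Of 17 tested chemokine and interleukin genes 5 fell, a share near that of all genes (25.1%), and 2 rose, or none without DMSO replicate 2 or acute replicate 2. CXCL8, a neutrophil chemokine that AP-1 induces, was lowest of its list (58.4 ± 39.4 to 6.29 ± 0.954 CPM, -3.21 ± 0.42, or -2.50 without DMSO replicate 3). LIF fell from 95.0 ± 23.4 to 19.1 ± 4.43 CPM (-2.31 ± 0.21) and IL11 from 5.01 ± 1.25 to 0.861 ± 0.366 CPM (-2.55 ± 0.38). CXCL11 had the highest value (1.39 ± 0.47) at about 2 CPM or less, and its call was lost without any 1 of 4 libraries, the DMSO replicates 1 and 2 and the acute replicates 2 and 3 (edgeR adjusted p 0.068 to 0.12). CD274, which encodes PD-L1, stood at 54.5, 55.9 and 56.7 CPM in the DMSO libraries and 6.71, 8.57 and 11.4 CPM in the acute libraries, without overlap (-2.65 ± 0.18, edgeR adjusted p = 4.0e-06). Its relative PDCD1LG2 fell too (-2.80 ± 0.31), while VTCN1, which encodes B7-H4, rose from 8.03 ± 1.72 to 42.2 ± 10.4 CPM (2.39 ± 0.22). Of 10 checkpoint genes 4 rose and 4 fell, next to 22.0% and 25.1% of all genes. The deaminase gene APOBEC3B fell from 75.9 ± 1.26 to 36.4 ± 1.41 CPM (-1.06 ± 0.09), and APOBEC3G rose (1.34 ± 0.32).

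Keratins fell, 12 of 15 tested, or 9 without DMSO replicate 1, with none called higher (median -1.0). KRT8, a keratin of simple epithelia, stood at 3597, 3623 and 3498 CPM in the DMSO libraries and 1638, 1638 and 1386 CPM in the acute libraries, without overlap (-1.20 ± 0.09, edgeR adjusted p = 9.1e-06). Its partner KRT18 fell from 2652 ± 60.1 to 863 ± 142 CPM (-1.62 ± 0.12). KRT6A, of wounded and squamous epithelium, fell from 131 ± 11.7 to 8.12 ± 1.39 CPM (-4.02 ± 0.14), with reads that its near copies may share. KRT20, of intestinal epithelium, fell furthest (3.51 ± 2.04 to 0.195 ± 0.0161 CPM, -4.13 ± 0.55, or -3.54 without DMSO replicate 3). KRT4 was highest and did not pass the test (1.25 ± 0.47, edgeR adjusted p = 0.052), but was called under 8 alternatives, among them the block (edgeR adjusted p = 8.7e-06 with the replicate block) and leaving out DMSO replicate 2 (edgeR adjusted p = 0.032) or acute replicate 3 (edgeR adjusted p = 0.017). Integrin and laminin genes fell in 11 of 18, with the collagen receptor ITGA2 lowest (284 ± 21.9 to 57.1 ± 7.09 CPM, -2.31 ± 0.11). LAMA5, a laminin chain of the basement membrane, alone rose (0.60 ± 0.11).

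Of 19 YAP and TEAD genes and targets 6 fell, near the share of all genes (25.1%), and 2 rose. F3, which encodes tissue factor, was lowest (194 ± 11.6 to 33.1 ± 8.12 CPM, -2.55 ± 0.16), CCN1, a secreted matrix protein, fell from 232 ± 35.8 to 94.8 ± 23.2 CPM (-1.29 ± 0.17), and WWTR1, which encodes the coactivator TAZ, fell from 54.1 ± 5.87 to 21.9 ± 2.90 CPM (-1.31 ± 0.13). TEAD2 was highest (0.79 ± 0.09). Among differentiation factors, the Notch ligand DLL1 stood at 0.986, 0.730 and 0.595 CPM in the DMSO libraries and 16.4, 14.4 and 15.1 CPM in the acute libraries, with no overlap (4.29 ± 0.23, edgeR adjusted p = 1.5e-06), while the Notch target HES1 was the lowest of that list (-1.05 ± 0.24). The list of KLF factors was led downwards by KLF2, an ERK5 target (29.4 ± 9.51 to 3.51 ± 1.09 CPM, -3.06 ± 0.29), and KLF15 was highest at about 1 CPM (1.09 ± 0.52, edgeR adjusted p = 0.11). Of 20 tested genes of the alveolar and airway lineage 10 rose, or 7 without DMSO replicate 1, and 2 fell. NKX2-1 (0.85 ± 0.08), the surfactant lipid carrier ABCA3 (14.1 ± 6.02 to 29.2 ± 4.13 CPM, 1.04 ± 0.28) and AGER, of flat alveolar cells (6.35 ± 1.46 to 15.9 ± 3.14 CPM, 1.33 ± 0.22), rose, and FOXA2 was lowest (-0.96 ± 0.22). SFTPD, a surfactant protein, was highest at about 1 CPM (1.62 ± 0.56), and its call was lost with the replicate block (edgeR adjusted p = 0.068 with the replicate block) and without 5 of the 6 libraries, all but acute replicate 2 (edgeR adjusted p 0.057 to 0.15).

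Large rises reached beyond these lists, most from low levels. The noncoding gene AL163636.3 had no count in any DMSO library and 9.70, 3.30 and 1.67 CPM in the acute libraries, at least 107-fold higher against a floor of 3 counts over the DMSO group. MS4A15, a tetraspan gene of lung epithelium, had 2 counts in all under DMSO and 379 after osimertinib, a ratio of 196 with an exact 95% counting interval of 54.0 to 1627. CYP17A1, of steroid synthesis, had 2 and 153 counts, a ratio of 79.3 with an interval of 21.6 to 660.5. These intervals cover counting error only. The haem carrier HPX rose from 0.844 ± 0.156 to 15.7 ± 4.44 CPM (4.21 ± 0.28). COL4A3, a collagen of basement membranes, rose from 1.44 ± 0.159 to 22.2 ± 8.03 CPM (3.94 ± 0.29). The dopamine transporter SLC6A3 rose from 1.95 ± 0.458 to 23.5 ± 4.69 CPM (3.59 ± 0.23). NATD1 went from 1.68 ± 0.477 to 27.1 ± 4.46 CPM (3.997 ± 0.23). SLCO2B1, IP6K3, NTN5 and TCP11L2 rose from about 1 CPM or less, by log2 fold changes of 4.56, 3.62, 3.57 and 3.59 (4.25 without DMSO replicate 3). SCNN1G, a subunit of the epithelial sodium channel, rose from 0.322 ± 0.237 to 3.90 ± 0.913 CPM (3.56 ± 0.56).

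At the other end, MYEOV, a neighbour of CCND1 on chromosome 11, fell furthest. It stood at 22.9, 26.9 and 26.3 CPM in the DMSO libraries and 0.453, 0.372 and 0.382 CPM in the acute libraries, far apart (-5.95 ± 0.20, edgeR adjusted p = 2.8e-07). The potassium channel gene KCNK2 fell from 3.25 ± 0.376 to 0.109 ± 0.0984 CPM (-4.78 ± 0.60, or -5.38 without acute replicate 3). The kinesin gene KIF24 fell from 5.71 ± 2.96 to 0.257 ± 0.445 CPM (-4.38 ± 0.91, not called in DESeq2, adjusted p = 0.054). It was at 0 in the acute libraries other than replicate 1, and without that library the fitted value was -9.90, which depends on the prior count. DTL, which marks the licensing factor CDT1 for destruction, fell from 94.8 ± 7.78 to 5.42 ± 1.28 CPM (-4.13 ± 0.17), and CDCA7, a target of E2F and MYC, from 83.4 ± 7.67 to 5.56 ± 1.34 CPM (-3.91 ± 0.17). The others among the 15 steepest falls were EGR1, DUSP6, FOSL1, MCM10, CDC6, RRM2, SPRY4, KRT20, KRT6A and ETV4, given above.

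Per length, in transcripts scaled to 1000000 per library (TPM), the most abundant genes called higher were mitochondrial. MT-CO2 went from 24836 ± 321 to 31659.7 ± 2969 TPM, MT-CO3 from 18089 ± 1059 to 25612 ± 3215 TPM, MT-CO1 from 13769 ± 1366 to 19482 ± 1972 TPM, MT-ND4 from 11663 ± 1109.6 to 14488 ± 1892 TPM and MT-ATP6 from 8854 ± 439.8 to 11236 ± 1647 TPM. The calls of MT-CO2, MT-ND4 and MT-ATP6 were each lost without DMSO replicate 1 (edgeR adjusted p = 0.073, 0.16 and 0.11) and without some of the other libraries. The most abundant genes called lower were S100A6, a calcium-binding protein (4132 ± 199 to 2869.8 ± 225 TPM), the folding enzyme PPIA (3981 ± 53.3 to 2601 ± 149.5 TPM), the glycolytic GAPDH (3804 ± 129 to 1799 ± 46.0 TPM), KRT8 (3122 ± 19.4 to 1362 ± 64.3 TPM) and the membrane-binding ANXA2 (3118 ± 211 to 2329 ± 229 TPM). The call of ANXA2 was lost without DMSO replicate 1 or DMSO replicate 2 (edgeR adjusted p = 0.055 and 0.061). PPIA, GAPDH and KRT8 have many processed pseudogenes with which reads may be shared.

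The same exposure was profiled in PC9, HCC827 and H1975, and a fit of the 24 DMSO and acute libraries tested whether the change in HCC2935 differed from theirs. In that fit the changes of ERBB3, HES1, SREBF1, LAMA5, ABCA12 and COL1A1 within HCC2935, among others, were no longer called. It differed from the mean of the other 3 lines for 3012 of 15970 genes (18.9%), being higher for 1442 (9.03%) and lower for 1570 (9.83%). Against single lines, 4181 genes differed from PC9 (26.2%), 2265 from HCC827 (14.2%) and 2432 from H1975 (15.2%). Of the genes that differed from HCC827, 51.4% were higher in HCC2935, but 38.5% were with scaling by library size only and 33.6% in limma on log2 TPM. With 1 sign against each line and their mean, 555 of 13674 genes with at least 1 CPM were called (4.06%), 258 higher and 297 lower. Each line stands for itself, and differences in medium or handling between lines cannot be told apart from it.

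Against the mean of the other lines, part of ERK output and of replication fell further in HCC2935, and part of mitosis fell less. Of 17 ERK output genes 5 were called lower than the mean of the other lines and none higher. Of all genes 9.83% were called lower and 9.03% higher. Without acute replicate 2 the ERK output genes called lower were 3. CCND1 changed by -3.10 on the log2 scale in HCC2935, against -0.52 in PC9, -2.56 in HCC827 and -2.68 in H1975, a difference of -1.18 ± 0.28 (edgeR adjusted p = 0.0046). CCND1 was called against the mean but not against every single line, and PC9 was the furthest from HCC2935. Of 30 replication genes 14 were lower and none higher, as with MCM5, at -3.16 against -1.61 to -1.93 (difference -1.35 ± 0.21, edgeR adjusted p = 1.3e-04). Of 30 mitotic genes 11 were higher and 1 lower. The mitotic median was -1.45 in HCC2935, close to -1.48 in PC9, and was -2.27 in HCC827 and -2.13 in H1975. CCNB1 changed by -1.23 in HCC2935 and by -1.39, -2.29 and -2.18 in PC9, HCC827 and H1975 (difference 0.72 ± 0.18, edgeR adjusted p = 0.0075). MET changed by -1.94 against -0.53, -0.77 and -0.30 (difference -1.41 ± 0.13, edgeR adjusted p = 5.2e-07). PIK3R1 changed by -1.28 in HCC2935 and stood at 0.61, 0.64 and -0.09 in the others (difference -1.67 ± 0.18, edgeR adjusted p = 3.3e-06).

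**Figure D4:**
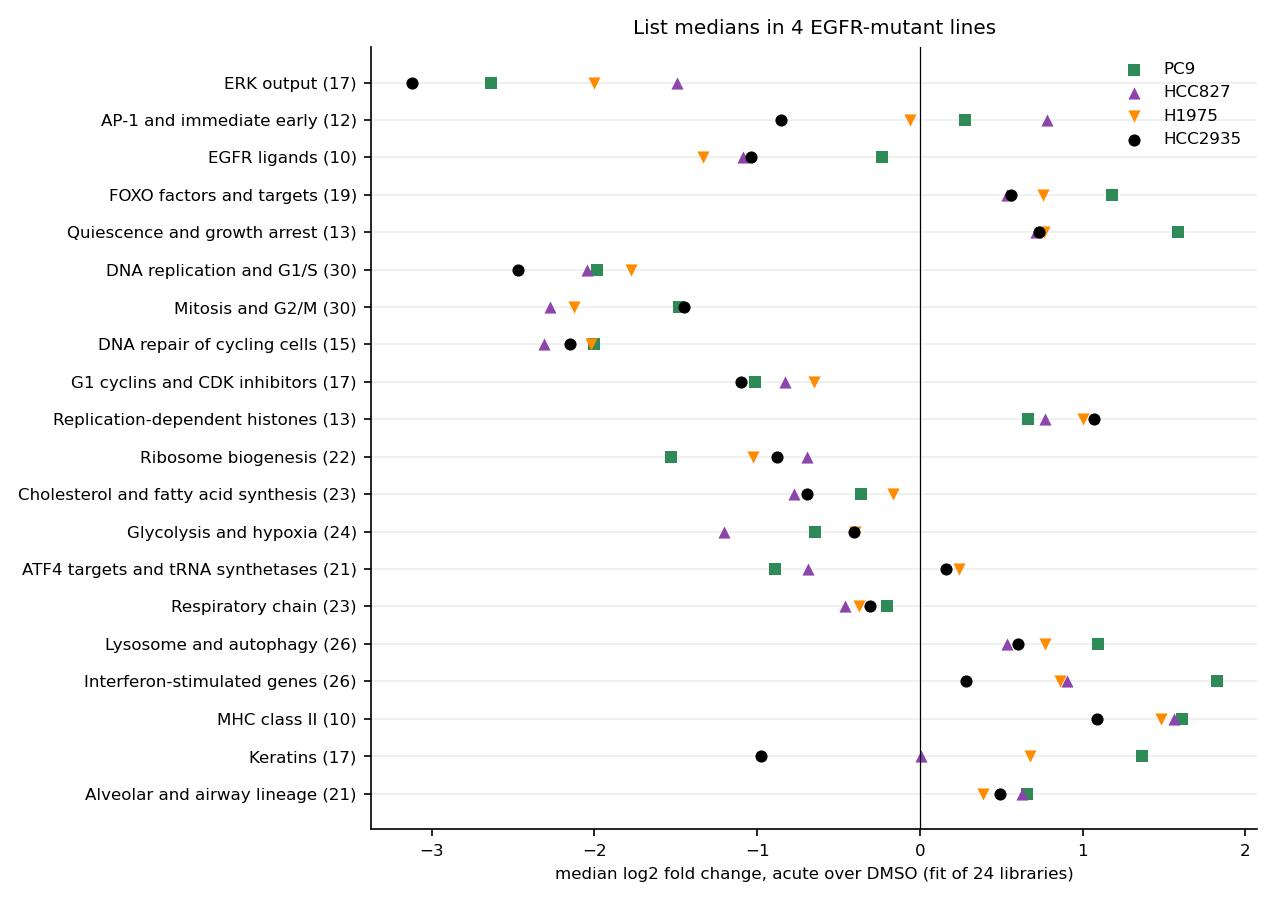
Median log2 fold change after 24 h of osimertinib (horizontal axis) of 20 gene lists in HCC2935, PC9, HCC827 and H1975, from the fit of 24 libraries. HCC2935 has the lowest median for ERK output, DNA replication, AP-1 and keratins. For mitosis HCC827 and H1975 lie below it and PC9 is close to it.

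Keratins differed in the same direction. Of 17 tested in the 24 libraries 12 were called lower in HCC2935 than in the mean of the others and none higher. Of all genes 9.83% were lower and 9.03% higher. KRT8 changed by -1.18 in HCC2935, -0.98 in HCC827, 1.10 in PC9 and 0.83 in H1975 (difference -1.49 ± 0.13, edgeR adjusted p = 4.1e-07). KRT17, of basal cells, changed by -0.93 against 3.17, 2.78 and 3.47 (difference -4.07 ± 0.49, edgeR adjusted p = 8.7e-06), and its call within HCC2935 was lost without DMSO replicate 1 or 2 or acute replicate 1 or 3 (edgeR adjusted p 0.068 to 0.17). In the list of ATF4 targets and tRNA synthetases 11 of 21 were higher than that mean and none lower. The list median was 0.16 in HCC2935 and 0.24 in H1975, against -0.89 in PC9 and -0.69 in HCC827. AARS1 changed by 0.58 against -0.77, -0.71 and 0.26 (difference 0.99 ± 0.14, edgeR adjusted p = 4.0e-05). DDIT4 stood at 1.86 against 0.97, -2.11 and 0.24 (difference 2.16 ± 0.29, edgeR adjusted p = 3.1e-05). Of 26 interferon-stimulated genes 7 were lower (9.83% of all genes were) and none higher. VTCN1 rose in HCC2935 by less than elsewhere, 2.42 against 5.89, 3.87 and 5.63 (difference -2.71 ± 0.35, edgeR adjusted p = 2.0e-05).

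Of the genes called against each of the other lines, those furthest above them included subunits of the epithelial sodium channel. SCNN1G changed by 3.59 in HCC2935 and by -1.32, -0.01 and -1.73 in PC9, HCC827 and H1975 (difference 4.61 ± 0.66, edgeR adjusted p = 5.2e-05). SCNN1B, its partner, rose from 8.82 ± 0.466 to 46.3 ± 4.98 CPM (difference 3.23 ± 0.53, edgeR adjusted p = 2.4e-04). IGFBP4, which binds insulin-like growth factors, rose from 514 ± 39.8 to 859 ± 70.4 CPM in HCC2935 and changed by -2.65, -1.77 and -1.87 elsewhere (difference 2.86 ± 0.25, edgeR adjusted p = 3.1e-07). ARHGAP22 (2.74 ± 0.38), KLRG2 (2.73 ± 0.57) and HENMT1 (3.03 ± 0.66) also differed upwards, the last with a ratio in HCC2935 of 7.77 and a counting interval of 1.81 to 70.0. The change of ARHGAP22 within HCC2935 was itself not called (0.31, edgeR adjusted p = 0.54). The difference of HENMT1 lost its call without acute replicate 3 (edgeR adjusted p = 0.058). AL163636.3, and PCDHGB4, at least 11.1-fold higher against the floor, had no DMSO count in HCC2935, and the exons of PCDHGB4 overlap those of other protocadherins.

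Those furthest below included genes that rose in the other lines. AQP3, a water and glycerol channel, changed by -1.32 in HCC2935 and by 5.75, 2.35 and 2.01 in the others (difference -4.69 ± 0.50, edgeR adjusted p = 2.5e-06). Fitted on the 6 libraries alone, the change in HCC2935 was -1.34, or -0.81 without DMSO replicate 3 and -2.14 without acute replicate 3. Within HCC2935 its call was lost without 4 of the 6 libraries, the DMSO replicates 1 and 3 and the acute replicates 1 and 2 (edgeR adjusted p 0.051 to 0.18), and in DESeq2, in limma and with scaling by library size only. KIF26A stood at -1.79 against 5.76, 0.10 and 3.25 (difference -4.83 ± 0.50, edgeR adjusted p = 2.8e-06). MGAM, a starch-digesting enzyme of the gut, fell from 114 ± 6.62 to 22.8 ± 5.60 CPM in HCC2935 (difference -3.72 ± 0.47, edgeR adjusted p = 1.5e-05). SPRR1A, of the cornified envelope, fell from 8.83 ± 3.06 to 0.951 ± 0.0861 CPM (difference -4.44 ± 0.90, edgeR adjusted p = 0.0018). SYNPO2L (-3.74 ± 0.69) and the pregnancy-specific glycoprotein genes PSG6 (-4.29 ± 0.53) and PSG1 (-3.66 ± 0.43) complete the list, the last 2 being near-identical copies between which reads may be shared. The change of PSG1 within HCC2935 was itself not called (-0.18, edgeR adjusted p = 0.59).

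The other HCC2935 arms share the DMSO libraries with the acute comparison, so their levels are given side by side with no test, on the scale of the 15 libraries of the line. DUSP6 ranged over 155 to 165 CPM under DMSO, 2.38 to 4.73 at 24 h, 8.94 to 15.5 in persisters at 21 days, 11.8 to 17.1 after the 24 h washout and 14.2 to 28.2 after 10 days without drug. It stayed below DMSO in every arm. EGR1 was 2.09 to 2.94 CPM at 24 h but 74.4 to 304 CPM in persisters, which overlapped its DMSO range. CDC6 was 8.01 to 11.8 CPM at 24 h, 34.6 to 62.6 in persisters, 138 to 144 a day after washout and 87.6 to 128 after 10 days, next to 143 to 199.7 under DMSO. CCNB2, a mitotic cyclin, was 33.0 to 40.0 CPM at 24 h, 21.8 to 43.3 in persisters, 30.5 to 51.8 a day after washout and 52.8 to 92.7 after 10 days, next to 73.1 to 79.7 under DMSO. A day after washout CCNB2 was below its DMSO range and CDC6 reached its own in 1 library, while after 10 days CDC6 was below its DMSO range and CCNB2 overlapped its own.

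**Figure D5:**
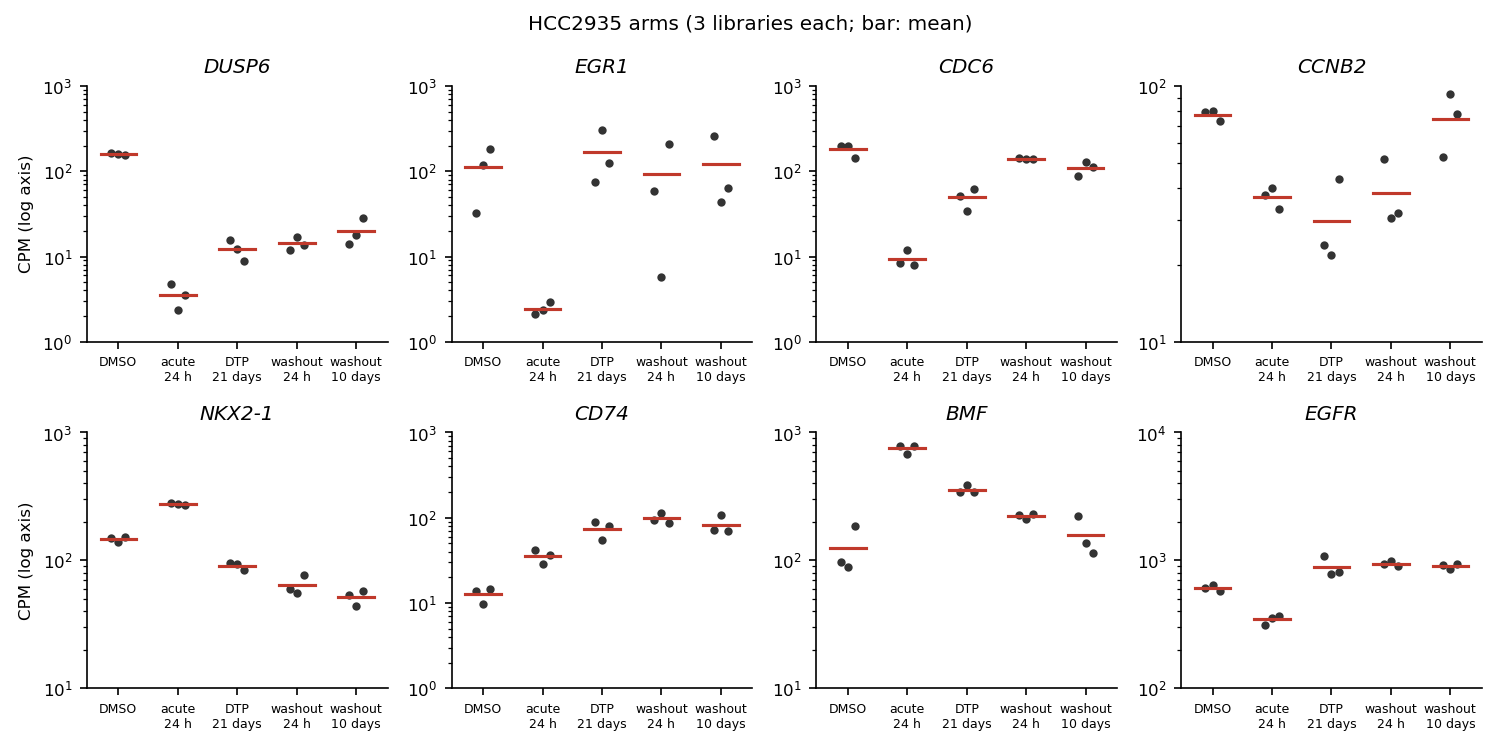
CPM (log axis, scale of the 15 HCC2935 libraries) of 8 genes in the 5 arms, 1 point per library, with arm means as bars. DUSP6 is below DMSO in all other arms, CDC6 is lowest at 24 h, NKX2-1 is above its DMSO range at 24 h alone, and CD74 is above its 24 h range in persisters and after washout.

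Several levels at 24 h were not those of persisters. NKX2-1 was 139 to 154 CPM under DMSO and 271 to 282 at 24 h, but 84.7 to 94.8 in persisters. HPX went from 0.661 to 0.947 to 12.8 to 20.6 CPM at 24 h and stood at 1.46 to 2.87 in persisters. ERBB3 was 157 to 161, 253 to 277 and 72.1 to 98.9 CPM in DMSO, acute and persister libraries. EGFR, lower at 24 h, stood at 783 to 1074 CPM in persisters, above its DMSO range of 573 to 647. CD74 moved the other way in time, from 28.9 to 42.0 CPM at 24 h to 54.2 to 90.1 in persisters and 70.2 to 108 after 10 days of washout. BMF was 676 to 787 CPM at 24 h and 342 to 389 in persisters, both above its DMSO range of 88.6 to 186, and KRT6A reached at most 10.2 CPM in any arm but DMSO, where it was 114 to 133.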

How the data were processed

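Poly(A)-selected RNA of 3 DMSO and 3 acute HCC2935 cultures was made into TruSeq mRNA libraries and sequenced on a HiSeq4000. The authors deposited estimated counts per gene for 60 libraries, which were not whole numbers, and log2 TPM, whose lowest value, -6.64, is the log2 of 0.01. HISAT2 2.1.0, Salmon 0.8.2 and build hg38 are named in the submitters' processing notes with no role, and the annotation and the strandedness of the libraries are not given in the sources used here. Of the 6 libraries, the shallowest held 18642630 and the deepest 23966956 counts, so genes with few counts carry the widest errors.

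Counts were rounded to whole numbers and normalised with TMM factors, low counts were filtered with filterByExpr, and groups were compared with the quasi-likelihood test of edgeR 4.0.16 (R 4.3.3) with Benjamini-Hochberg adjustment over all genes tested. The study's methods state no model for these data. Differences between lines came from 1 fit of the 24 DMSO and acute libraries. CPM were computed from the TMM library sizes. Each SE is the absolute log2 fold change over the square root of the F statistic of the quasi-likelihood test. Alternatives used DESeq2 1.42.0 and limma 3.58.1 (on the deposited log2 TPM), other scaling, filters, thresholds and sets of libraries, a replicate block, and each library left out in turn. Deviations of same-numbered acute and DMSO libraries correlated at r = 0.184, 0.121 and 0.349 over genes, and those of differently numbered ones at -0.241 to 0.112. In the replicate block the numbers were taken to pair the samples, on the evidence of the data alone. The main fit, which gave the reported calls, ignored this pairing. It called 6623 genes and the block 7484. Replicates differed by more than sampling noise (chi-square over its degrees of freedom 8.66 to 24.1). The scripts were tested on simulated counts.

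Members and gene lists were chosen with earlier results of these data known, so list counts are descriptions beside the share of all genes. Genes are named as the 15 steepest of each direction (mean of at least 1 CPM, groups not overlapping), as members of lists (always the highest and lowest tested member of a list described), as the 8 differences furthest each way from the other lines (called against each line and their mean), and as the 5 most abundant called in each direction by TPM. Some genes that this rule picks are not reported here. Of 225 named genes, 73 overlap an exon on the opposite strand, 30 an exon on the same strand and 28 have a named pseudogene (GENCODE release 29), so that their counts may hold reads of the neighbour or copy. Promoter windows came from RefSeq. No columns of fold changes or p-values were in the tables.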

Additional observations from a re-analysis of the deposited data

Results flagged for a closer look

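The response to 24 h of osimertinib differed between HCC2935 and other lines by the test of the difference itself, for 4181 genes against PC9, 2265 against HCC827, 2432 against H1975 and 3012 against the mean of the 3. Values below are HCC2935 minus that mean, on the log2 scale ± SE, for genes called by edgeR against the mean and against each line.

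Genes of the cycle that fell further in HCC2935 were CCNE1 (-1.32 ± 0.19), CDT1 (-1.41 ± 0.19), MCM5 (-1.35 ± 0.21) and RRM2 (-1.39 ± 0.24). Signalling and immediate early genes below the other lines were MET (-1.41 ± 0.13), PIK3R1 (-1.67 ± 0.18) and IER2 (-1.04 ± 0.25). Immune, death and lysosomal genes below them were LIF (-1.86 ± 0.28), OAS3 (-1.45 ± 0.21), VTCN1 (-2.71 ± 0.35), PMAIP1 (-1.09 ± 0.17) and CD68 (-1.49 ± 0.27). Genes of epithelial differentiation and transport below them were KRT17 (-4.07 ± 0.49), SPRR1A (-4.44 ± 0.90), AQP3 (-4.69 ± 0.50), MGAM (-3.72 ± 0.47) and S100A6 (-0.75 ± 0.12). KIF26A (-4.83 ± 0.50), SYNPO2L (-3.74 ± 0.69), PSG1 (-3.66 ± 0.43) and PSG6 (-4.29 ± 0.53) were also below. Above the other lines were SCNN1G (4.61 ± 0.66) and SCNN1B (3.23 ± 0.53), IGFBP4 (2.86 ± 0.25), NDRG1 (1.73 ± 0.22), ARHGAP22 (2.74 ± 0.38), KLRG2 (2.73 ± 0.57) and HENMT1 (3.03 ± 0.66, not called without acute replicate 3). WARS1 (0.89 ± 0.15), ABCA1 (1.99 ± 0.29) and BOP1 (0.69 ± 0.18, or 0.40 and not called without acute replicate 3) were above as well. For ARHGAP22, BOP1 and PSG1 the change within HCC2935 was itself not called. AL163636.3 (8.503 ± 1.99) and PCDHGB4 (6.44 ± 1.45) had no count in the HCC2935 DMSO libraries, so that their fitted differences depend on the prior count.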

How the results depend on the processing

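The count of genes changed by osimertinib ran from 5280 to 6446 when 1 library was left out, lowest without DMSO replicate 1, and from 4445 (adjusted p under 0.01) to 7484 (replicate block) otherwise. Genes changed at least 2-fold numbered 1856 to 2453. All stayed within 1.5 times the reported counts. Differences between lines moved more. At an adjusted p under 0.01 they numbered 2592 against PC9, 1063 against HCC827, 1124 against H1975 and 1569 against the mean. With the replicate block they numbered 3603, 1680, 1810 and 2427. With 1 library left out they numbered 3608 to 3857, 1694 to 2039, 1801 to 2253 and 2228 to 2695. The first has fewer calls by construction, and for the others the cause was not tested. Of 219 named genes 200 were called, 180 of them under every alternative and none with a turned sign. A call was lost by 20 under some alternative, 11 of them without DMSO replicate 1, and SFTPD alone lost it with the block. Of the 19 not called, 8 gained a call somewhere and 5 changed sign. ALPL did so (-0.0060 with no filter, and -0.064 to 0.10 with 1 library left out). In the others the sign turned with 1 library left out, over ranges of -0.18 to 0.29 for BOP1, -0.17 to 0.068 for EGF, -0.21 to 0.74 for H3C2 and -0.30 to 0.015 for PSG1. Of 105 named differences from the mean of the other lines 72 kept their call throughout. It was lost by 16 without DMSO replicate 1 and by 12 with the block. The median over all genes stayed within 0.1 of 0 on the log2 scale under every scaling of the acute comparison. Low counts limit genes such as AL163636.3, MS4A15 and CYP17A1.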

Other observations

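Alkaline phosphatase genes of the placental kind rose in HCC2935 after 24 h of osimertinib. ALPP stood at 9.48, 12.8 and 3.77 CPM in the DMSO libraries and 71.9, 72.7 and 51.9 CPM in the acute libraries, without overlap (2.91 ± 0.34, edgeR adjusted p = 1.1e-04). ALPG rose from 2.03 ± 0.131 to 12.03 ± 2.05 CPM (2.56 ± 0.22), and ALPL, of liver and bone, stayed near 2 CPM (0.01 ± 0.30). ALPP and ALPG are near-identical, so that reads may be shared between them. Of 10 tested mucin genes 6 rose, beside 22.0% of all genes, and 2 fell, or 1 without DMSO replicate 1 or 3 or acute replicate 1 or 2. MUC16, the antigen CA-125, was highest (75.4 ± 28.7 to 239 ± 79.9 CPM, 1.67 ± 0.28), MUC20 rose from 168 ± 19.9 to 466 ± 52.6 CPM (1.48 ± 0.12), and MUC2, of the gut, was lowest (6.86 ± 7.63 to 0.635 ± 0.226 CPM, -3.42 ± 0.78, or -1.94 without DMSO replicate 2).

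Among aldehyde dehydrogenases, which clear reactive aldehydes, 6 of 10 tested rose, beside 22.0% of all genes. ALDH3B1 stood at 103, 106 and 71.1 CPM in the DMSO libraries and 338, 284 and 272 CPM in the acute libraries, and its groups were well apart (1.68 ± 0.15, edgeR adjusted p = 2.7e-05). ALDH1A1, a marker of progenitor cells in several epithelia, was highest (2.33 ± 0.626 to 7.96 ± 1.15 CPM, 1.77 ± 0.26), and ALDH1B1 alone fell (-0.38 ± 0.12) and lost its call without any 1 of 4 libraries, the DMSO replicates 1 and 2 and the acute replicates 2 and 3 (edgeR adjusted p 0.062 to 0.079). Of 9 tested ABC transporters 3 rose and 1 fell, next to 22.0% and 25.1% of all genes. ABCA4, a retinoid carrier of the eye, was highest (11.1 ± 0.783 to 45.8 ± 13.5 CPM, 2.05 ± 0.21), the cholesterol exporter ABCA1 rose from 3.76 ± 0.944 to 14.3 ± 1.20 CPM (1.92 ± 0.21), and ABCA12, a lipid carrier of skin and lung, fell (-0.60 ± 0.10). ABCG2, a drug exporter, had the lowest value without passing the test (-0.61 ± 0.32, edgeR adjusted p = 0.15). Of 10 tested surface proteins that antibodies are made against 5 rose, or 4 without DMSO replicate 1 or 2 or acute replicate 1 or 3. The folate receptor FOLR1 was highest (2.39 ± 0.0805 to 7.45 ± 1.13 CPM, 1.64 ± 0.23) and CD44 alone fell (402 ± 10.8 to 245 ± 27.0 CPM, -0.71 ± 0.10). Of 18 NRF2 targets, which answer oxidative stress, 3 rose and 6 fell, next to 22.0% and 25.1% of all genes. These targets ran from AKR1C1 (2.07 ± 1.17 to 10.6 ± 1.76 CPM, 2.36 ± 0.38, with close relatives that may share its reads) to GCLM, of glutathione synthesis (39.5 ± 3.09 to 19.7 ± 2.46 CPM, -1.004 ± 0.13).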
